A study of Homo sapiens with 12 samples.

Results

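The genes described here are 8 noncoding hosts of small nucleolar RNAs (snoRNAs), namely SNHG1, SNHG5, SNHG6, SNHG7, SNHG8, SNHG12, ZFAS1 and GAS5. They were chosen by name, and every probe that the platform annotation pairs with one of these symbols was taken, whatever its signal. That gave 10 of the 15329 probes in the deposited table, for 7 of the 8 genes, out of 9647 genes represented. SNHG7 had 3 probes, SNHG5 had 2 and the other 5 genes had 1 each, and GAS5 was not analysed here because no listed probe carried its symbol. The study asked which RNAs a microRNA binds, by transfecting a biotinylated copy of it and capturing that copy with the RNA attached. All cells were HEK293T, an established human embryonic kidney line that carries the SV40 large T antigen, and all had received 200 pmol of a synthetic biotin-labeled microRNA duplex for 24 hours. The 4 groups, of 3 Illumina HT-12 arrays each, were miR-199a-5p pull-downs, which held RNA retained with that duplex on streptavidin beads, miR-199a-5p inputs, miR-424-3p pull-downs and miR-424-3p inputs. The inputs were RNA of cells given the same duplex, so no group was free of a transfected microRNA, and mock-transfected cells were not analysed here.

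A snoRNA host gene is transcribed by RNA polymerase II into a spliced transcript whose introns carry snoRNAs. The snoRNAs are trimmed from the excised introns and then guide chemical modification of ribosomal RNA, ribose methylation for the C/D box class and pseudouridylation for the H/ACA class. The spliced exons of these 8 genes encode no conserved protein, and several of them (GAS5 is the textbook case) are engaged by ribosomes in the cytoplasm, begin with a terminal oligopyrimidine (TOP) tract like the mRNAs of ribosomal proteins, and are degraded by nonsense-mediated decay (NMD). Mature microRNAs act in the cytoplasm, where Argonaute proteins use the seed near their 5′ end to find target transcripts.

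The mature forms of the 2 microRNAs are shown to make plain that their seeds differ, with the seed, bases 2 to 8, in capitals. They stand in for the transfected duplexes, since the study's list of duplex sequences holds neither microRNA. Both mature sequences are those of RefSeq (GRCh38.p14), read 5′ to 3′. The first is encoded by MIR199A2 (chr1:172144592-172144614, minus strand) and by MIR199A1 (chr19:10817469-10817491, minus strand), and the second by MIR424 (chrX:134546644-134546664, minus strand).
hsa-miR-199a-5p: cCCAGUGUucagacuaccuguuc
hsa-miR-424-3p: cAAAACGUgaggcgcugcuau
The starts of 6 of the host genes are shown because a pyrimidine tract at the start is the feature most often named for this gene class. SNHG6 and GAS5 were not included. Each line holds 30 bases, 10 before and 20 from the RefSeq gene start (GRCh38.p14), on the strand of the gene, with the longest run of C and T in capitals. They lie at chr11:62855866-62855895 (minus strand) for SNHG1, chr6:85678714-85678743 (minus) for SNHG5, chr9:136728165-136728194 (minus) for SNHG7, chr4:118278752-118278781 (plus) for SNHG8, chr1:28581854-28581883 (minus) for SNHG12 and chr20:49278632-49278661 (plus) for ZFAS1.
SNHG1: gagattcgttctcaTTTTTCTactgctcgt
SNHG5: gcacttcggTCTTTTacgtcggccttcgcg
SNHG7: CCTTCTCgtcctctgcgtgcgccggaggct
SNHG8: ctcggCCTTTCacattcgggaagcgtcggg
SNHG12: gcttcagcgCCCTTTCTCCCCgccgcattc
ZFAS1: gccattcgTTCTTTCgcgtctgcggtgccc
The run was 12 bases long in SNHG12, a length reached by 2.51% of 35116 such windows in the RefSeq table. It was 7 bases long in SNHG1, SNHG7 and ZFAS1 (19.3% of windows reach that) and 6 in SNHG5 and SNHG8 (30.4%), against a median of 4 over all windows. Counted from the gene start, with bases before it negative, the run began at -1 in SNHG5 and SNHG12 and at -2 in ZFAS1. It began at -5 in SNHG8, at -10 in SNHG7 and at base 5 in SNHG1. The SNHG7 run thus lay wholly before the annotated start, so not every run is a tract at the start. The letters TATAA, searched on both strands from 40 to 21 bases before the start, were found for 5 of the 6 genes, SNHG1 being the exception, and in 4.5% of all windows. These matches are descriptions of sequence only.

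Every value is a normalized log2 signal, and a log2 fold change is the difference between group means on that scale. Array medians lay between 9.149 and 9.208, arrays of 1 group correlated at r of 0.983 or more across probes, and the correlation of pull-downs with their own inputs was 0.928 to 0.95 in the miR-199a-5p set and 0.917 to 0.939 in the miR-424-3p set. Of 8 genes expected in HEK293T cells, 6 had a listed probe, with VIM at the 97.2 percentile of probe means, LIN28B at 91.6, NEFM at 62.7, KRT8 at 45.2, NEFL at 31.5 and KRT18 at 24.3, whereas PAX2 and LHX1 had none. Of 12 markers of other cell types only ALB and COL1A1 had a listed probe, at the 23.5 and 6.75 percentiles. Normalization between arrays makes each value relative to the remaining probes of its array: a lower value in a pull-down cannot tell less of that RNA on the beads from more of the others. In bulk cells, fewer cells with an RNA and less RNA per cell cannot be told apart either.

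The 10 probes spanned most of the signal range of the array. The means over 12 arrays of the SNHG5 probes lay at the 93.8 and 95.3 percentiles of all probe means, that of the brightest SNHG7 probe at 89.4, SNHG6 at 86, SNHG1 at 85.7 and ZFAS1 at 85.2. The other SNHG7 probes lay at 71 and 27.2, SNHG8 at 19.8 and SNHG12 at 16.4. A percentile describes the signal of a probe and not the amount of an RNA, since probes differ in their response. The transformation used by the authors compresses differences at low signal, so fold changes of dim probes such as those of SNHG8 and SNHG12 may be understated, which was not tested.

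In the miR-199a-5p pull-downs, ZFAS1, SNHG5 and SNHG6 were lower than in the inputs and 1 of 3 SNHG7 probes was slightly higher, while SNHG1, SNHG8 and SNHG12 passed no test. In the miR-424-3p pull-downs, SNHG5, SNHG1, SNHG6 and ZFAS1 were lower, as were 2 of 3 SNHG7 probes, and no probe was called higher. The sizes ran up to 2.89-fold lower for ZFAS1 with miR-199a-5p and 2.68-fold lower for SNHG5 with miR-424-3p. A call means an adjusted p under 0.05 in a one-sided limma test.

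**Figure D1:**
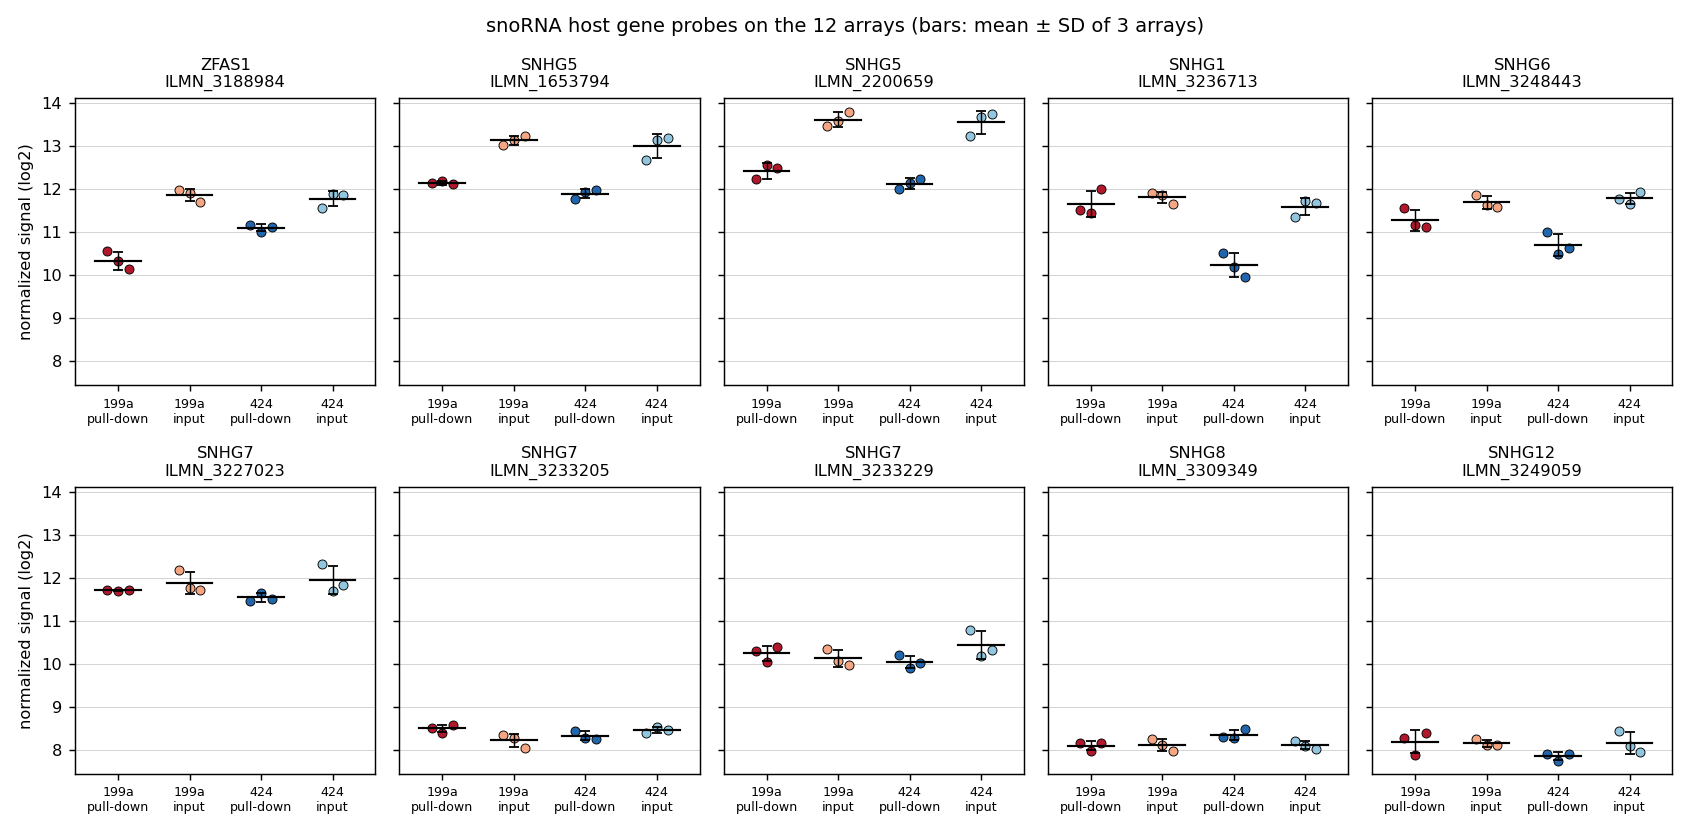
Each panel is 1 probe of a snoRNA host gene, with the normalized log2 signal on the vertical axis and the 4 groups on the horizontal axis (named by the number of their microRNA). Points are single arrays, horizontal bars the means and whiskers the SD (n = 3 each). The pull-downs of ZFAS1, SNHG6 and both SNHG5 probes lie wholly below their inputs for both microRNAs, those of SNHG6 by only 0.01 with miR-199a-5p. Those of SNHG1 do so for miR-424-3p alone.

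ZFAS1, which hosts the C/D box snoRNAs SNORD12, SNORD12B and SNORD12C, had the largest decrease with miR-199a-5p among the 10 probes. Its signal was 10.56, 10.33 and 10.14 in the miR-199a-5p pull-downs, against 11.99, 11.92 and 11.71 in the inputs. The highest pull-down thus lay 1.15 below the lowest input, and the log2 fold change was -1.53 ± 0.12 (SE, n = 3 each), or 2.89-fold lower, with an adjusted p of 2.71e-07 in limma. In the miR-424-3p pull-downs the same probe gave 11.18, 11.02 and 11.12, against 11.58, 11.89 and 11.88 in the inputs. These groups were also apart, by 0.40, and the log2 fold change was -0.67 ± 0.12 (1.6-fold lower, adjusted p = 0.000298 in limma). Leaving out any 1 array kept both calls, the values being -1.64 to -1.43 with miR-199a-5p and -0.78 to -0.62 with miR-424-3p.

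SNHG5, host of SNORD50A and SNORD50B, was lower by a similar amount with both microRNAs on both of its probes. Probe ILMN_2200659 read 12.23, 12.58 and 12.49 in the miR-199a-5p pull-downs, against 13.48, 13.60 and 13.80 in the inputs. It read 11.998, 12.15 and 12.25 in the miR-424-3p pull-downs, against 13.25, 13.68 and 13.75 in the inputs. No pull-down reached an input in either set, with gaps of 0.90 and 1.00. The log2 fold changes were -1.19 ± 0.14 for miR-199a-5p (2.29-fold lower, adjusted p = 6.66e-06) and -1.42 ± 0.14 for miR-424-3p (2.68-fold lower, adjusted p = 1.13e-06), both in limma. The other probe, ILMN_1653794, gave 12.14, 12.20 and 12.12 in the miR-199a-5p pull-downs against 13.04, 13.15 and 13.25 in the inputs, and 11.78, 11.94 and 11.98 in the miR-424-3p pull-downs against 12.69, 13.15 and 13.20 in the inputs. Again the groups did not overlap, and the changes were -0.99 ± 0.12 for miR-199a-5p (1.99-fold lower, adjusted p = 1.16e-05 in limma) and -1.12 ± 0.12 for miR-424-3p (2.17-fold lower, adjusted p = 3.35e-06). Both probes detect 1 transcript, so they are 1 gene measured in duplicate and not 2 results.

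SNHG1, which carries SNORD22 and the run SNORD25 to SNORD31, was lower with miR-424-3p but passed no test with miR-199a-5p. Its signal was 10.53, 10.20 and 9.97 in the miR-424-3p pull-downs, against 11.37, 11.72 and 11.69 in the inputs. All pull-downs lay below all inputs, and the log2 fold change was -1.36 ± 0.16 (2.57-fold lower, adjusted p = 7.61e-06 in limma). In the miR-199a-5p pull-downs it was 11.52, 11.45 and 12.002, against 11.91, 11.88 and 11.65 in the inputs. Here the groups overlapped, since the pull-down of replicate 3 was the highest of the 6 arrays, and the log2 fold change was -0.15 ± 0.16 with a 95% interval of -0.50 to 0.19 (adjusted p = 0.453 in limma). With array weights, which lean on the more regular arrays, this value was -0.31 and passed the threshold (adjusted p = 0.0376).

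SNHG6, host of SNORD87, was lower in both sets, by less with miR-199a-5p. It read 10.997, 10.49 and 10.63 in the miR-424-3p pull-downs, against 11.78, 11.66 and 11.93 in the inputs, a log2 fold change of -1.08 ± 0.15 (2.12-fold lower, adjusted p = 2.34e-05 in limma) with no overlap. In the miR-199a-5p pull-downs it read 11.57, 11.16 and 11.12, against 11.87, 11.64 and 11.58 in the inputs. The highest of these pull-downs lay only 0.01 below the lowest input, and the log2 fold change was -0.41 ± 0.15 (1.33-fold lower, adjusted p = 0.0288 in limma). That call was lost without pull-down replicate 2 (-0.35, adjusted p = 0.0975), without pull-down replicate 3 (-0.33, adjusted p = 0.0993) and without input replicate 1 (-0.32, adjusted p = 0.112).

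The 3 probes of SNHG7, a host of H/ACA box snoRNAs, did not move alike. In the miR-424-3p pull-downs the brightest, ILMN_3227023, read 11.48, 11.66 and 11.51, against 12.33, 11.70 and 11.84 in the inputs, and ILMN_3233229 read 10.21, 9.92 and 10.02, against 10.80, 10.19 and 10.33 in the inputs. The pull-downs of the brightest probe lay below the inputs by a margin of 0.04, those of the other overlapped them, and on both probes input replicate 1 was the highest array. Their log2 fold changes were -0.41 ± 0.15 (adjusted p = 0.0301) and -0.39 ± 0.15 (adjusted p = 0.0409) in limma. Without miR-424-3p input replicate 1 the values were -0.22 (adjusted p = 0.158) and -0.21 (adjusted p = 0.208), and each call was also lost without 2 of the pull-downs in turn. Without pull-down replicate 1 or 3 the first probe gave -0.37 and -0.39 (adjusted p = 0.085 and 0.0778), and without pull-down replicate 2 or 3 the other gave -0.33 and -0.38 (adjusted p = 0.133 and 0.0939). The call of the first probe was lost with cyclic loess as well (-0.32, adjusted p = 0.0794). The dimmest probe, ILMN_3233205, gave -0.13 ± 0.10 with miR-424-3p (adjusted p = 0.251).

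With miR-199a-5p that dimmest SNHG7 probe was the 1 host gene probe called higher. It read 8.51, 8.41 and 8.59 in the pull-downs, against 8.34, 8.28 and 8.05 in the inputs, so that the groups stood 0.06 apart. The log2 fold change was 0.28 ± 0.10 (1.21-fold higher, adjusted p = 0.0277 in limma). The call was lost without pull-down replicate 1 (0.27, adjusted p = 0.0612), without pull-down replicate 3 (0.23, adjusted p = 0.0848), without input replicate 3 (0.19, adjusted p = 0.136), and in a fit of the miR-199a-5p arrays alone (adjusted p = 0.0585). The other SNHG7 probes gave -0.17 ± 0.15 (adjusted p = 0.353) and 0.12 ± 0.15 (adjusted p = 0.541) with miR-199a-5p, in ranges that overlapped between pull-downs and inputs. The platform assigns the dimmest and the brightest of the 3 probes to 1 RefSeq transcript of SNHG7, and the remaining probe to another.

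SNHG8 and SNHG12, the hosts with the dimmest single probes, passed no test in either pull-down. SNHG8, host of SNORA24, read 8.30, 8.28 and 8.49 in the miR-424-3p pull-downs, against 8.21, 8.10 and 8.03 in the inputs. The pull-downs all lay above the inputs, by 0.07 or more, and the log2 fold change of 0.24 ± 0.10 (1.18-fold) missed the threshold (adjusted p = 0.0545 in limma). It passed with median scaling (0.25, adjusted p = 0.0446), cyclic loess (0.27, adjusted p = 0.0363), quantile normalization (0.27, adjusted p = 0.0365), array weights (0.29, adjusted p = 0.013), trended and robust moderation (adjusted p = 0.0313) and without miR-424-3p input replicate 1 (0.29, adjusted p = 0.0412). In the miR-199a-5p pull-downs SNHG8 read 8.16, 7.99 and 8.15, against 8.26, 8.12 and 7.98 in the inputs, a log2 fold change of -0.02 ± 0.10 (95% interval -0.23 to 0.19) that turned to 0.015 with cyclic loess and to 0.033 with quantile normalization. SNHG12, which carries SNORA61 and further snoRNAs, read 7.91, 7.75 and 7.92 in the miR-424-3p pull-downs, against 8.44, 8.09 and 7.96 in the inputs. Those pull-downs lay below the inputs by a margin of 0.04, with a log2 fold change of -0.31 ± 0.14 (adjusted p = 0.0696 in limma). With trended and robust moderation that fold change passed the threshold (adjusted p = 0.0302), as it did without miR-424-3p input replicate 3 (-0.41, adjusted p = 0.0335). With miR-199a-5p SNHG12 read 8.28, 7.89 and 8.39 in the pull-downs, against 8.25, 8.10 and 8.11 in the inputs, and its log2 fold change was 0.04 ± 0.14 (95% interval -0.26 to 0.33).

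**Figure D2:**
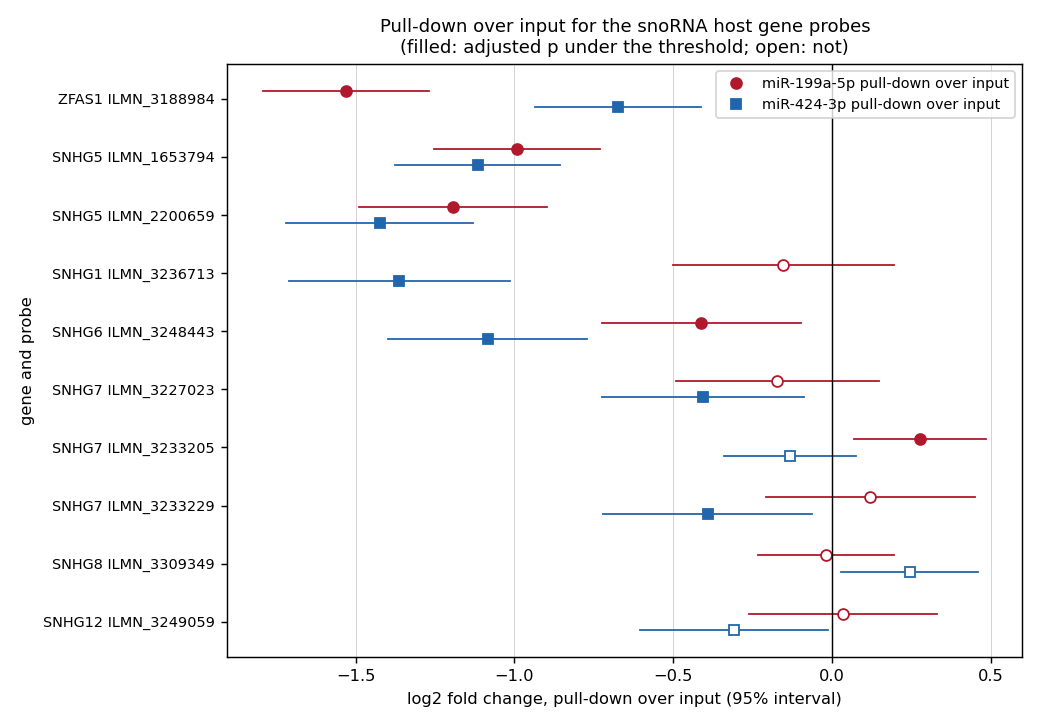
The horizontal axis gives the log2 fold change of pull-down over input with its 95% interval for each host gene probe, circles for miR-199a-5p and squares for miR-424-3p, filled where the adjusted p was under 0.05. ZFAS1 is farthest left for miR-199a-5p at -1.53, SNHG5 for miR-424-3p at -1.42, and the intervals of SNHG8 and SNHG12 for miR-199a-5p span 0.

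Counted over probes, 4 of the 10 were called lower and 1 higher with miR-199a-5p, where 25.9% of all 15329 probes were called lower and 25.6% higher. With miR-424-3p, 7 of 10 were lower and 0 higher, where 28.8% of all probes were lower and 26.3% higher. The median log2 fold change of the 10 probes was -0.16 with miR-199a-5p, beside 0.0006 over all probes, and -0.54 with miR-424-3p, beside -0.02. With each gene represented by its brightest probe, 3 of 7 genes were lower with miR-199a-5p, against 20.1% of 9647 genes, and 5 of 7 with miR-424-3p, against 25.7%. None of the 7 was higher, where the share of all genes called higher was 29.9% for miR-199a-5p capture, against 30.3% under miR-424-3p. With 7 genes these shares are a description and not a test. In the miR-424-3p pull-downs the listed markers of other cell types, ALB and COL1A1, were also lower, by 0.39 and 0.26 on the log2 scale, and in the miR-199a-5p pull-downs they stood at -0.20 to -0.01 and were not called. Both were dim in all groups, between 7.70 and 8.66, and their part in the result was not tested. The 6 measured genes expected in HEK293T cells changed as well. With miR-199a-5p, 4 of them were lower, among them VIM at -1.37 and KRT18 at -0.94, and LIN28B alone was higher, at 0.92. With miR-424-3p, 2 were lower and 0 higher.

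For some host genes the log2 fold change differed between the miR-199a-5p and miR-424-3p sets. The direct test took the miR-199a-5p log2 fold change minus that of miR-424-3p. SNHG1 had the largest difference, at 1.21 ± 0.23 (95% interval 0.72 to 1.70, adjusted p = 0.00122 in limma), less depleted with miR-199a-5p. SNHG6 followed in the same direction at 0.67 ± 0.21 (adjusted p = 0.0208). ZFAS1 went the other way, at -0.86 ± 0.17 (95% interval -1.22 to -0.49, adjusted p = 0.00141), more depleted with miR-199a-5p. The differences of SNHG1 and ZFAS1 were called whichever of the 12 arrays was left out, with SNHG1 at 1.04 to 1.36 and ZFAS1 at -0.96 to -0.75. That of SNHG6 missed the threshold without miR-424-3p pull-down replicate 2 (0.57, adjusted p = 0.0584) and without miR-424-3p input replicate 3 (0.60, adjusted p = 0.0556).

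For SNHG5 no difference was detected: 0.23 ± 0.19 on ILMN_2200659 (95% interval -0.19 to 0.65, adjusted p = 0.368 in limma) and 0.12 ± 0.17 on ILMN_1653794 (95% interval -0.25 to 0.49, adjusted p = 0.6). The intervals leave room for a difference of up to 0.65 log2 units. Among the SNHG7 probes the dimmest gave 0.41 ± 0.14 (adjusted p = 0.031), a call that was lost when any 1 of 7 of the 12 arrays was left out (0.32 to 0.41, adjusted p of 0.0519 to 0.078), and the others gave 0.51 ± 0.22 (adjusted p = 0.0776) and 0.23 ± 0.21 (adjusted p = 0.399). SNHG8 stood at -0.26 ± 0.14 (adjusted p = 0.168) and SNHG12 at 0.34 ± 0.20 (adjusted p = 0.18), neither called. SNHG8 passed with array weights (-0.36, adjusted p = 0.0288), SNHG12 without miR-199a-5p pull-down replicate 2 (0.49, adjusted p = 0.0459), and SNHG7 probe ILMN_3233229 without miR-424-3p input replicate 2 or miR-199a-5p input replicate 1 (0.64 and 0.63, adjusted p = 0.0356 and 0.0415). In all, 3 of 10 probes were higher and 1 lower in this contrast, where 18.8% of all probes were higher and 18% lower, and the median was 0.29 beside 0.01 over all probes. The count of 3 fell to 1 without miR-424-3p pull-down replicate 2 or without miR-424-3p input replicate 3, where only SNHG1 was still called higher.

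**Figure D3:**
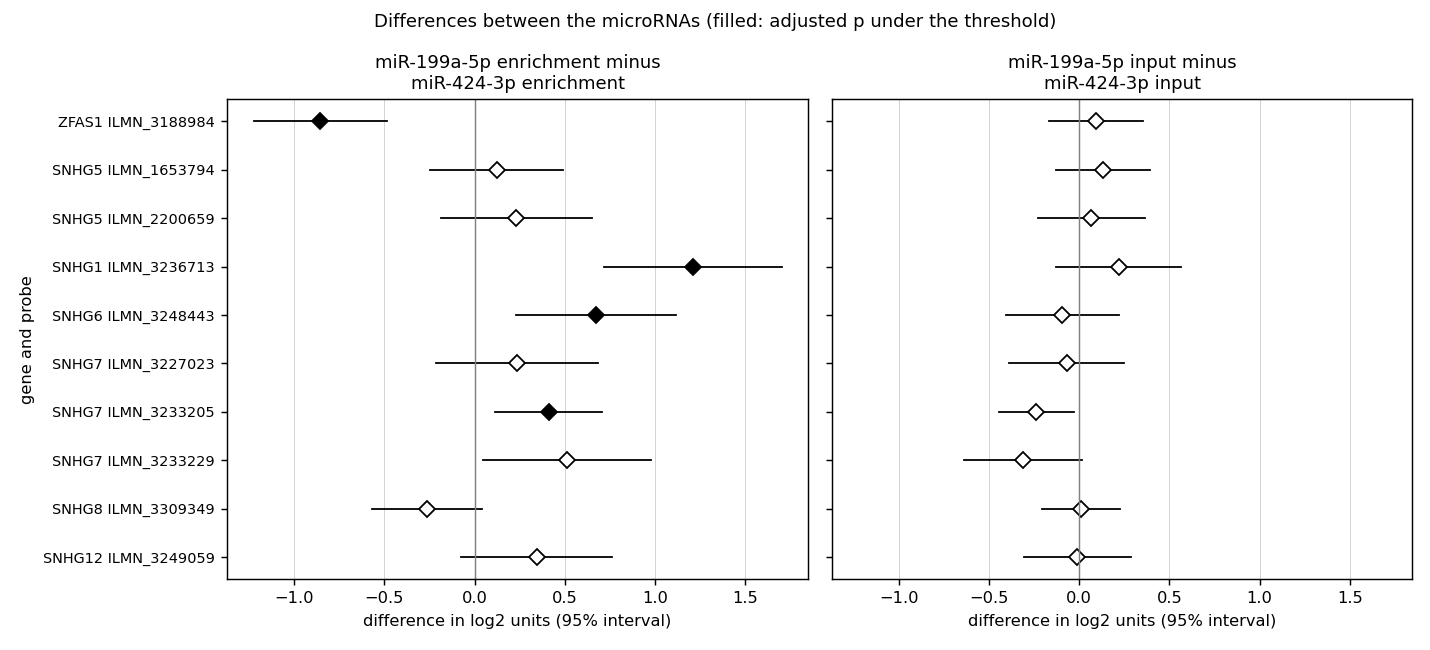
The left panel shows the miR-199a-5p log2 fold change minus that of miR-424-3p for each host gene probe, the right panel the miR-199a-5p inputs minus the miR-424-3p inputs, with 95% intervals and filled symbols where the adjusted p was under 0.05. SNHG1 (1.21) and ZFAS1 (-0.86) stand on opposite sides at the left, and no probe is called at the right.

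The inputs were compared to see whether the host genes already differed between cells given the 2 duplexes. None of the 10 probes was called, in a two-sided limma test in which 1 probe was higher (0.00652% of all) and 2 were lower (0.013%). The log2 differences, miR-199a-5p inputs minus miR-424-3p inputs, ran from -0.31 for SNHG7 probe ILMN_3233229 to 0.22 for SNHG1. The interval of SNHG1 (-0.13 to 0.57) holds a difference of some size. Each input is subtracted in the difference between enrichments, so a higher miR-199a-5p input lowers that value. For the dimmest SNHG7 probe the inputs lay apart, at 8.34, 8.28 and 8.05 for miR-199a-5p and at 8.39, 8.53 and 8.47 for miR-424-3p. That difference of -0.24 ± 0.10 (adjusted p = 0.534) enters the 0.41 given above for the same probe. In the same way the -0.31 of ILMN_3233229 enters the uncalled 0.51 given above for that probe.

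Across the 12 arrays, which include the group differences, the profiles of the host genes were alike in part. The SNHG5 probes correlated with each other at r = 0.993, with SNHG6 at 0.803 and 0.818, and with ZFAS1 at 0.773 and 0.784. SNHG1 correlated with SNHG6 at 0.813 but with ZFAS1 at only 0.186, and with SNHG8 at -0.718, the lowest value of any pair. The SNHG7 probes correlated with each other at 0.0202 to 0.748. These are descriptions over 12 arrays that share 4 groups. All other genes were set beside the mean centred profile of the measured host genes, each by its brightest probe. Most alike were SERF1B (r = 0.987), the disulfide isomerase PDIA6 (0.986), the cyclophilin PPIE (0.984), the RPA-interacting protein RPAIN (0.983) and the mitochondrial ribosomal protein MRPS18C (0.981).

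Other noncoding snoRNA hosts went in both directions. Of 22 listed, 8 were measured, and 2 were lower and 1 higher with miR-199a-5p (median -0.21), and 3 lower and 2 higher with miR-424-3p (median 0.08), beside all-gene medians of 0.06 and 0.03. Of all genes, by brightest probe, 20.1% were lower and 29.9% higher with miR-199a-5p, and 25.7% lower and 30.3% higher with miR-424-3p. With 8 genes, 1 gene is a large share of such a count. DANCR, which hosts SNORA26, read 12.63, 12.52 and 12.85 in the miR-424-3p pull-downs against 11.64, 11.53 and 11.69 in the inputs, and 10.89, 11.06 and 10.88 in the miR-199a-5p pull-downs against 11.41, 11.65 and 11.33 in the inputs. It was thus higher by 1.05 ± 0.11 (2.07-fold, adjusted p = 1.88e-06 in limma) with miR-424-3p and lower at -0.52 ± 0.11 (adjusted p = 0.00111) with miR-199a-5p, with no overlap in either set. SNHG9, host of SNORA78, was likewise higher with miR-424-3p at 0.57 ± 0.15 (adjusted p = 0.0057) and lower with miR-199a-5p at -0.50 ± 0.15 (adjusted p = 0.0131). The SNHG9 decrease missed the threshold without miR-199a-5p pull-down replicate 2 (-0.33, adjusted p = 0.0729) and without input replicate 2 or 3 (-0.45 and -0.44, adjusted p = 0.0516 and 0.0505). SNHG32, host of SNORD48 and SNORD52, resembled SNHG1, with 11.42, 11.07 and 11.12 in the miR-424-3p pull-downs against 12.47, 12.17 and 12.39 in the inputs (-1.14 ± 0.12, adjusted p = 2.08e-06) and an uncalled -0.22 ± 0.12 with miR-199a-5p (adjusted p = 0.142), which passed with array weights (-0.23, adjusted p = 0.0471), as SNHG1 did. SNHG11 was higher with miR-199a-5p at 0.34 ± 0.10 (adjusted p = 0.0103). EPB41L4A-AS1 was lower with miR-424-3p at -0.32 ± 0.13 (adjusted p = 0.0464), a call lost without any of 3 pull-downs or without input replicate 1 (-0.16, adjusted p = 0.239), and also with cyclic loess (-0.26, adjusted p = 0.0865), array weights (-0.24, adjusted p = 0.0692), the miR-424-3p arrays alone (adjusted p = 0.0558) and trended and robust moderation (adjusted p = 0.0534).

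A few probes addressed snoRNAs that lie within the 8 hosts. The labelling kit primes on poly(A) tails, which mature snoRNAs lack, and what these probes detected was not tested. SNORA61, which lies in an intron of SNHG12, read 8.37, 8.27 and 8.20 in the miR-424-3p pull-downs, against 9.27, 9.17 and 9.19 in the inputs. It was lower by 0.93 on the log2 scale (SE 0.14, 1.9-fold, adjusted p = 8.45e-05 in limma), while the SNHG12 probe stood at -0.31 in the same comparison. With miR-199a-5p SNORA61 stood at -0.15 ± 0.14 (adjusted p = 0.407), passing with array weights (-0.29, adjusted p = 0.0296) and without pull-down replicate 3 (-0.345, adjusted p = 0.0227), and the difference between the microRNAs was 0.78 ± 0.20 (adjusted p = 0.009). SNORD80, from GAS5, was the only view of that locus, with 8.46, 8.28 and 7.93 in the miR-199a-5p pull-downs against 8.64, 8.73 and 8.79 in the inputs. It was lower at -0.50 ± 0.14 (adjusted p = 0.00901) with miR-199a-5p and stood at -0.28 ± 0.14 (adjusted p = 0.109) with miR-424-3p, a value that passed with array weights (-0.32, adjusted p = 0.0203) and without miR-424-3p input replicate 1 (-0.41, adjusted p = 0.0236). SNORD25, from SNHG1, was near the floor of the array at the 1.91 percentile, with -0.25 ± 0.08 for miR-424-3p (adjusted p = 0.0152) and -0.19 ± 0.08 for miR-199a-5p (adjusted p = 0.0587). The SNORD25 call was lost without miR-424-3p pull-down replicate 2 or input replicate 3 (-0.22 and -0.23, adjusted p = 0.0552 and 0.0523), and with quantile normalization (-0.16, adjusted p = 0.114). Its miR-199a-5p value passed with median scaling (-0.22, adjusted p = 0.0339), array weights (-0.24, adjusted p = 0.00801) and trended and robust moderation (adjusted p = 0.0103). SNORA24, from SNHG8, at the 3.44 percentile, gave -0.16 ± 0.08 for miR-424-3p (adjusted p = 0.113, or 0.0379 with trended and robust moderation) and -0.02 ± 0.08 for miR-199a-5p (adjusted p = 0.894).

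Gene groups that share a trait with the hosts had counts in both directions, to be read beside all genes, of which 20.1% were lower and 29.9% higher with miR-199a-5p, and 25.7% lower and 30.3% higher with miR-424-3p. Of 54 measured protein-coding snoRNA hosts of 63 listed, 17 were lower and 15 higher with miR-199a-5p (median 0.08), and 26 lower and 14 higher with miR-424-3p (median -0.28). RPL21 was lowest among them in both, at -1.58 ± 0.16 with miR-199a-5p (adjusted p = 2.39e-06 in limma) and -1.92 ± 0.16 with miR-424-3p (adjusted p = 3.78e-07), and its many processed pseudogenes make that probe uncertain. CNOT1, which hosts SNORA46 and SNORA50A and holds the CCR4-NOT deadenylase complex together, was higher with miR-199a-5p at 0.97 ± 0.14 (adjusted p = 7.28e-05). Of 16 proteins that build or assemble snoRNA particles, 7 were lower and 3 higher with miR-199a-5p (median -0.15), and 5 lower and 3 higher with miR-424-3p (median 0.02). SNU13, which binds the kink-turn of C/D box snoRNAs, was higher in both, at 0.86 ± 0.14 with miR-199a-5p (adjusted p = 0.000194) and 0.71 ± 0.14 with miR-424-3p (adjusted p = 0.000674), whereas NOP10, a core H/ACA protein, was lower with miR-424-3p at -1.01 ± 0.10 (adjusted p = 1.42e-06).

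Of 13 measured NMD factors of 17 listed, 2 were lower and 4 higher with miR-199a-5p (median 0.04), and 2 lower and 1 higher with miR-424-3p (median 0.10). For this and the next lists the shares over all genes were again 20.1% lower and 29.9% higher for miR-199a-5p, then 25.7% lower and 30.3% higher for miR-424-3p. MAGOH, a core protein of the exon junction complex, was lower in both, at -1.09 ± 0.10 with miR-199a-5p (adjusted p = 5.88e-07 in limma) and -1.40 ± 0.10 with miR-424-3p (adjusted p = 7.97e-08). Of 16 measured TOP mRNAs outside the ribosomal proteins, of 19 listed, 6 were lower and 5 higher with miR-199a-5p (median -0.11), and 6 lower and 6 higher with miR-424-3p (median -0.06). HNRNPA1, a splicing regulator, was lower in both, at -1.62 ± 0.14 with miR-199a-5p (adjusted p = 4.09e-07) and -1.08 ± 0.14 with miR-424-3p (adjusted p = 1.22e-05). Its probe was dim, with a mean of 8.39 beside a median level of 13.03 in this list, and what it detected was not tested. EIF3F, an initiation factor subunit, was lower with miR-199a-5p at -0.93 ± 0.11 (adjusted p = 6.99e-06) and higher with miR-424-3p at 0.90 ± 0.11 (adjusted p = 7.45e-06). VIM stands both in this list and among the genes expected in HEK293T cells. EEF1B2, EEF2 and EIF3A stand both in this list and among the protein-coding snoRNA hosts. NOP56, NOP58 and DKC1 stand both among those hosts and among the proteins of snoRNA particles, so the counts of these lists are not separate. Of 6 measured long noncoding RNAs that host no snoRNA, of 21 listed, 2 were lower and 1 higher with miR-199a-5p (median -0.04), and 2 lower and 2 higher with miR-424-3p (median -0.13). TUG1 was higher by 0.46 ± 0.10 with miR-199a-5p (adjusted p = 0.00132) and by 0.48 ± 0.10 with miR-424-3p (adjusted p = 0.000731). OIP5-AS1 was lower, at -1.11 ± 0.12 with miR-199a-5p (adjusted p = 5.39e-06) and -0.88 ± 0.12 with miR-424-3p (adjusted p = 3.79e-05).

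**Figure D4:**
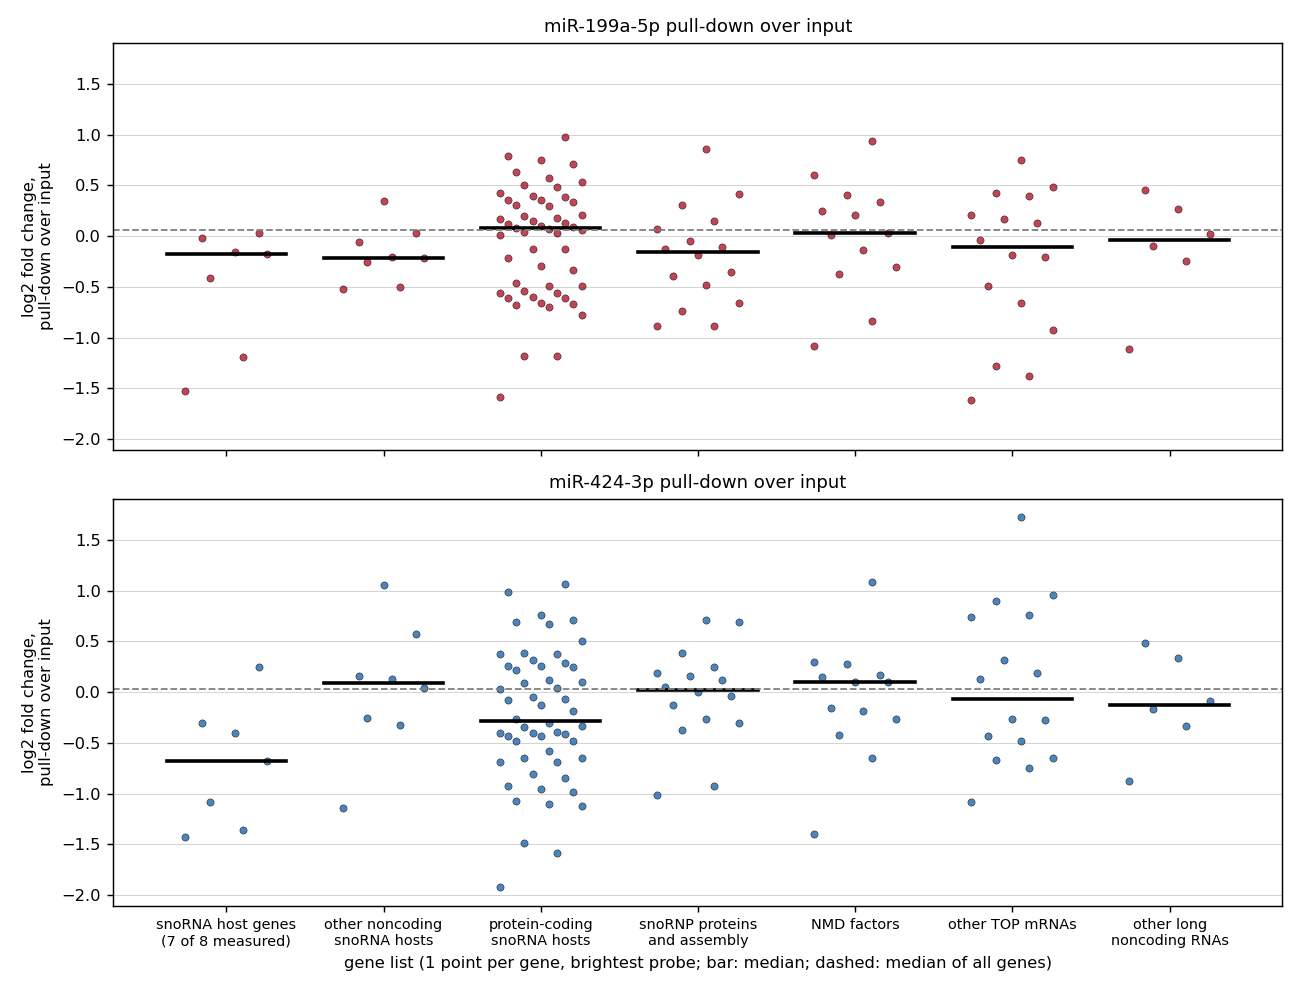
Each point is the log2 fold change of pull-down over input (vertical axis) of 1 gene by its brightest probe, for miR-199a-5p above and miR-424-3p below, in the 7 measured host genes and in 6 related gene lists. Thick bars are list medians and the dashed line the median of all genes. The host genes have medians of -0.17 above and -0.67 below. All lists have points on both sides of 0, and the highest host gene stands at 0.04 above and 0.24 below.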

How the data were processed

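The deposited values were normalized log2 signals that the authors made with lumi (version 2.2.1 in the submitters' processing notes), by background adjustment, a variance-stabilizing transformation and robust spline normalization. The choice of the 15329 probes is not described in the sources used here. Signals before normalization and detection p-values stood in 24 columns of per-sample values whose names match no label. They were not used, so correction from raw signals and a filter on detection were not run. No scan date or slide was used, and no batch could be examined. Groups came from titles and characteristics. These give miR-199a-5p, although 1 supplementary legend writes miR-199b-5p.

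The platform annotation gave 12432 probes 1 gene symbol, 2 several and 2895 none, and 12430 were found by gene identifier in RefSeq (GRCh38.p14), with 0 symbols changed. Means of the 4 groups were fitted to all 12 arrays with lmFit and eBayes in limma (version 3.58.1, R 4.3.3), leaving 8 residual degrees of freedom. Each pull-down contrast and the difference between enrichments was tested in each tail, inputs against inputs two-sidedly, with Benjamini-Hochberg adjustment over 15329 probes. The code was tested on simulated data. The labels only number the replicates, while the same legend describes the transfections as repeated independently. The 3 arrays a group limit the precision.

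The 8 genes, the gene lists and the rule for names were chosen with earlier results of these data known. The rule took every probe of the 8 genes, up to 4 called genes with the largest change from each list and pull-down, and the 5 genes with the most similar profile. Only part of the genes it took from the lists is named above. Among those left out, the TOP mRNAs EIF3H and PABPC1 were higher with miR-424-3p (log2 fold changes 1.72 and 0.95). Lower with miR-199a-5p were SHQ1 (-0.89), RUVBL1 (-0.89) and the protein-coding hosts IPO7 (-1.18) and RPL17 (-1.18). The hosts RPL30 (-1.58) and RPL12 (-1.49) were lower with miR-424-3p. The snoRNAs within the hosts were picked after their values were seen. Alternatives were 3 further scalings (each array's median, cyclic loess, quantile), array weights, a replicate block, fits to the compared groups alone, the other choice of test tails, a required fold change of 1.5, a required mean of 9, trended and robust eBayes, and leaving out each array.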

Additional observations from a re-analysis of the deposited data

Results flagged for a closer look

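The following probes differed between the 2 microRNAs in the direct test of their enrichments (limma, adjusted over all probes), given as the miR-199a-5p log2 fold change minus that of miR-424-3p. Among the 8 host genes, SNHG1 differed by 1.21 ± 0.23 (adjusted p = 0.00122), with -0.15 for miR-199a-5p and -1.36 for miR-424-3p, SNHG6 by 0.67 ± 0.21 (adjusted p = 0.0208), and the SNHG7 probe ILMN_3233205 by 0.41 ± 0.14 (adjusted p = 0.031). ZFAS1 differed by -0.86 ± 0.17 (adjusted p = 0.00141), with -1.53 for miR-199a-5p and -0.67 for miR-424-3p. Among further hosts, DANCR differed by -1.57 ± 0.15 (adjusted p = 4.68e-06) and SNHG9 by -1.07 ± 0.22 (adjusted p = 0.00142), each of them called higher by miR-424-3p capture but lower by that of miR-199a-5p, and SNHG32 by 0.93 ± 0.17 (adjusted p = 0.000867). The snoRNA SNORA61 of SNHG12 differed by 0.78 ± 0.20 (adjusted p = 0.009). For each of these, 3 arrays stood in every group.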

How the results depend on the processing

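The calls of ZFAS1 and both SNHG5 probes in both pull-downs, and of SNHG1 and SNHG6 with miR-424-3p, held in every setting run, as did the differences between the microRNAs for SNHG1 and ZFAS1. The count of 1 probe higher with miR-199a-5p became 0 in a fit to the compared groups alone, with a required fold change of 1.5 and with a required mean of 9, which removes that probe, and was 0 to 1 leaving out single arrays. The count of 0 probes higher with miR-424-3p became 1 with median scaling, cyclic loess, quantile normalization, array weights, and trended and robust moderation, and was 0 to 1 leaving out single arrays. By brightest probe, the 3 of 7 genes lower with miR-199a-5p became 4 with array weights and 2 with a required fold change of 1.5. Leaving out single arrays gave 2 to 3. The 5 of 7 lower with miR-424-3p became 4 with cyclic loess or a required fold change of 1.5. They became 6 with the replicate block or trended and robust moderation, and were 4 to 6 leaving out single arrays. In the difference between enrichments the 3 probes higher became 2 with a fold change of 1.5 or a mean of 9 required and ranged from 1 to 4 leaving out single arrays, and the 1 lower became 2 with array weights. The difference was not fitted to the compared groups alone, since it uses all 4. Replicate numbers were not taken as pairs, since same-numbered arrays did not deviate together throughout: pull-downs and inputs correlated at 0.0751, 0.0207 and -0.1 for miR-199a-5p and at 0.134, 0.0598 and 0.258 for miR-424-3p. Across the microRNAs the inputs did so at 0.514, 0.0382 and 0.105 and the pull-downs at 0.0762, 0.221 and 0.00245, and miR-199a-5p input 3 was closer to miR-424-3p input 2 (0.482) than to its own number. With the replicate block, 4 and 8 probes were lower with miR-199a-5p and miR-424-3p, SNHG12 being added at -0.31 (adjusted p = 0.0378), and 4 were higher in the difference, where the SNHG7 probe ILMN_3233229 was added. Over all probes, 160 were higher and 139 lower between the inputs with array weights, against 1 and 2 without. Requiring a fold change of 1.5 also ends, by construction, the calls of SNHG6 with miR-199a-5p and of both SNHG7 probes with miR-424-3p. Uncalled values near 0 changed sign. With miR-199a-5p, SNHG8 was 0.015 with cyclic loess, 0.033 with quantile normalization and -0.092 to 0.051 leaving out arrays, SNHG12 -0.056 with array weights and -0.067 to 0.18 leaving out arrays, SNORA24 0.059 with cyclic loess, 0.067 with quantile normalization and -0.056 to 0.035 leaving out arrays, and SNORA61 -0.35 to 0.032 leaving out arrays. With miR-424-3p, SNHG11 was -0.035 to 0.093 leaving out arrays, and the EPB41L4A-AS1 difference was -0.094 to 0.17. Between inputs, with array weights SNHG5 probe ILMN_2200659 was -0.039 and SNHG12 0.041, and leaving out arrays SNHG5 ran from -0.027 to 0.23 (ILMN_1653794) and -0.085 to 0.16 (ILMN_2200659), SNHG7 probe ILMN_3227023 from -0.21 to 0.12, SNHG8 from -0.061 to 0.082, SNHG12 from -0.11 to 0.13 and ZFAS1 from -0.011 to 0.17. The cause of these changes was not tested.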

Other observations

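The table also held probes for 72 snoRNAs, a list drawn up after the data had been examined and given without a test of the list. With miR-199a-5p, 31 were lower and 4 higher, with a median log2 fold change of -0.20, and with miR-424-3p 50 were lower and 2 higher, with a median of -0.37. Over all genes, likewise by brightest probe, 20.1% were lower and 29.9% higher with miR-199a-5p, and 25.7% lower and 30.3% higher with miR-424-3p. The largest decreases were those of SNORD96A with miR-199a-5p, at -1.50 ± 0.09 (adjusted p = 5.15e-08 in limma), and of SNORA67 with miR-424-3p, at -1.59 ± 0.12 (adjusted p = 1.38e-07). SNORD68 was lower with both, at -0.90 ± 0.11 and -1.23 ± 0.11 (adjusted p = 1.47e-05 and 6.97e-07). Most of these probes were dim, with a median level of 8.11 against 9.41 over all genes, and whether they detect a snoRNA, an intron or a longer transcript was not tested.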
